A study of Homo sapiens with 6 samples.

Results

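Expression of 51 genes of the cell cycle and of DNA replication was compared between STUB1 knockout and control HaCaT cells, an immortalized human keratinocyte line. The genes were chosen by name, with earlier results of these data known: 14 act mainly in G1, 14 in S phase and 23 in G2 or mitosis. All 51 were found by Ensembl identifier among the 20014 genes measured, and all 51 passed the filter on low values, a mean of at least 1 FPKM over the 6 libraries, as did 11262 genes overall. FPKM counts sequenced fragments relative to transcript length and to the total of the library, so levels can be compared between genes of different length.

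STUB1, also called CHIP, is a ubiquitin ligase that works with the HSP70 and HSP90 chaperones. Both groups of cells received a CRISPR guide on a lentiviral vector, directed at STUB1 in the knockout and a control guide in the control, and neither group had any further treatment. The labels describe sorting into plates and screening of colonies by immunoblot. Whether libraries within a group stem from different clones or cultures is not stated, so a p-value here reflects the spread among 6 libraries and that spread may be technical.

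Cells pass from G1 into S phase when D-type cyclins with CDK4 or CDK6, and then cyclin E with CDK2, phosphorylate the RB1 protein and release E2F factors, which switch on replication genes. In G1 the MCM helicase is loaded onto origins with CDC6 and CDT1, and in S phase PCNA clamps the polymerases to DNA while ribonucleotide reductase supplies the nucleotides. Cyclins A and B with CDK1, the Aurora and Polo kinases and the spindle checkpoint then drive and time mitosis, whose genes are mostly transcribed late in the cycle. HaCaT cells divide continuously in culture, and a bulk library mixes cells of every phase, so fewer cells in a phase and less RNA per cell cannot be told apart.

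STUB1 mRNA measured 21.6, 24.7 and 23.2 FPKM in knockout libraries 1 to 3 and 37.8, 41.9 and 52.7 FPKM in control libraries 1 to 3, a log2 fold change of -0.89 (limma, Benjamini-Hochberg adjusted p = 0.00125). JMJD8, which overlaps STUB1 on the opposite strand, was lower as well (log2 fold change -0.44, limma adjusted p = 0.0142). The exonic bases they share were not computed, and the part of read assignment in either value was not tested. Of 10 keratinocyte markers, 8 reached a mean of 1 FPKM, while KRT14 and KRT17 did not. The summed keratinocyte markers ran from 1066 to 1172 FPKM in the knockout and from 855.7 to 923.3 FPKM in the control, and the part of this difference in the results was not tested. The 6 fibroblast markers stayed below 1 FPKM each, with DCN at 0, and 2 of 6 melanocyte markers exceeded it (PMEL and MITF, with TYR at 0). Mitochondrially encoded transcripts took 26.2%, 30.8% and 29.6% of all FPKM in knockout libraries 1 to 3. In control libraries 1 to 3 they took 26.8%, 24.7% and 20.9%. The 51 genes took 0.674% to 0.745% over the 6 libraries. Controls 1 and 2 correlated across genes at a Pearson's r of 0.998, and control 3 with them at 0.988 and 0.986, no closer than control 2 with knockouts 1 and 3 (0.989 and 0.988).

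After the knockout 5 genes rose and 4 fell at an adjusted p of 0.05 (17.6% of 51), and the other 42 did not pass the test. Among all 11262 tested genes 22.9% passed, 1079 higher (9.58%) and 1500 lower (13.3%), so the share among cell cycle genes was not above that background. The median log2 fold change was 0.044 over the 51 genes and -0.010 over all tested genes. With TPM, FPKM rescaled to a fixed sum in each library, these were 0.00067 and -0.052, with TPM of nuclear genes 0.093 and 0.0345, and with a correction for GC content and transcript length 0.084 and -0.0040. Fold changes are on the log2(FPKM + 1) scale, which understates changes of genes at low levels. The called changes ran from 0.23 to 0.66 in absolute log2 value, and no cell cycle gene changed 2-fold. The 3 largest were the fall of the checkpoint kinase gene TTK, the fall of the survivin gene BIRC5 and the rise of the CDK inhibitor gene CDKN2C. These 3 passed under all 14 alternative settings tried, and the other 6 calls were each lost under at least 4 of them.

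The groups did not overlap for 22 of the 51 genes (43.1%), against 45.6% of all tested genes. With 3 libraries against 3, the smallest p of an exact two-sided permutation test is 0.1, which each of the 9 called genes reached. For 39 of the 42 genes that did not pass, the 95% interval of the log2 fold change lay within 0.5 on either side of 0. The exceptions were MKI67, whose interval reached 0.63, PCNA and E2F2. These intervals reflect the spread among libraries in this fit and leave out shifts between settings. CDK1, with an interval of -0.23 to 0.20, was at 0.24 with the correction for GC content and transcript length. The 51 genes were expressed at a median of 42.1 FPKM, against 9.94 FPKM for all tested genes, and 3 of them, CDKN2C, CCNE1 and E2F2, were below 5 FPKM.

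**Figure D1:**
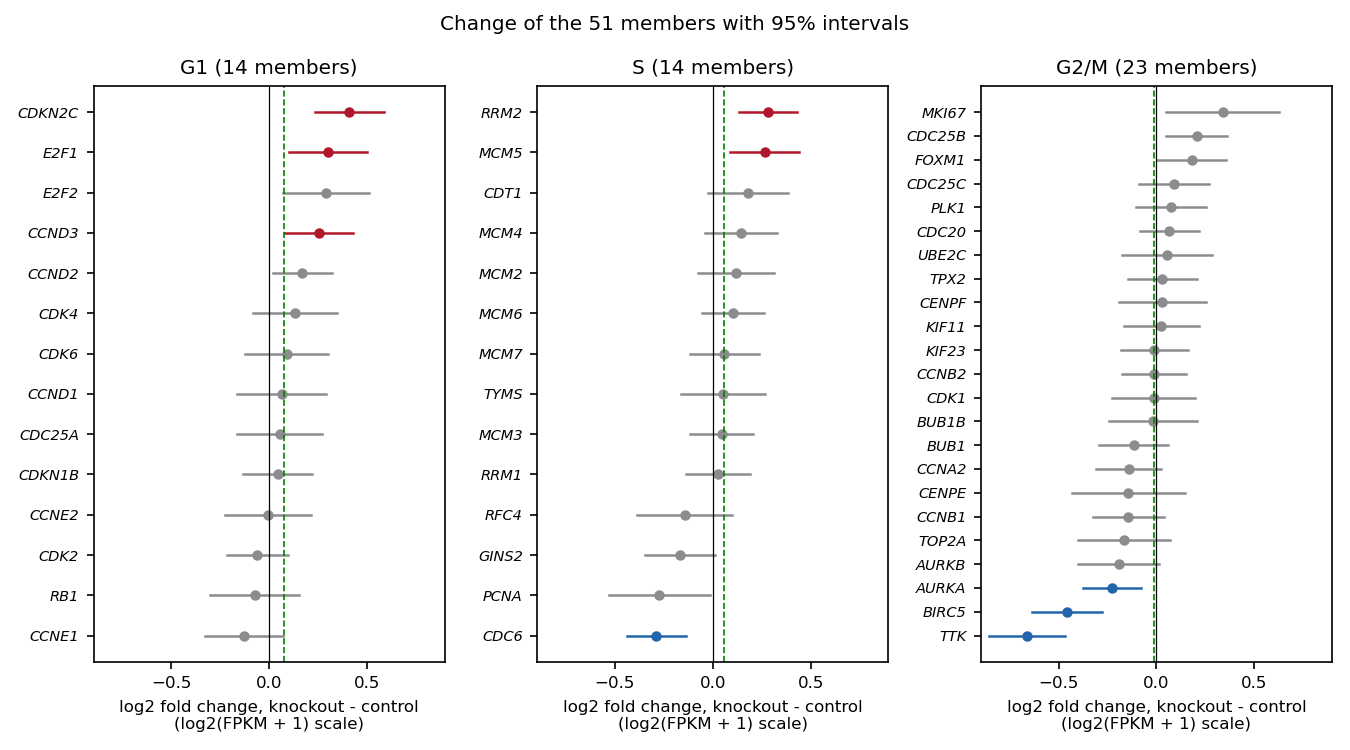
Log2 fold change (knockout minus control, log2(FPKM + 1) scale) of the 51 genes in 3 panels by phase, with 95% intervals; red points rose, blue points fell, grey points did not pass, and the dashed green line is the median of the panel. The 3 calls in G1 are all rises, the 3 calls in G2/M are all falls in the fit shown, though some genes of G2/M rose under other settings, and most intervals include 0.

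Promoters were searched for short sequences, and 6 are shown as examples, picked from those that carry sequences known from promoters of cell cycle genes. E2F factors bind a short site, searched here as TTTCCCGC, TTTCGCGC, TTTGCCGC and TTTGGCGC. The cell cycle homology region, CHR, was searched as TTTGAA, and the site of NF-Y as CCAAT. The window was the 250 bases before the first RefSeq start of each gene on GRCh38.p14, read on both strands. Promoters were found for 39 of the 51 genes. Not matched were CCND1, CCND2, CDK2, CCNE2, MCM4, MCM5, AURKA, UBE2C, BIRC5, FOXM1, TPX2 and TTK.

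An E2F sequence was present in 3 of 10 G1 promoters, 7 of 12 S promoters and 0 of 17 G2/M promoters, against 2.79% of 27305 promoters of the same length. A CHR sequence was present in 0 of 10, 1 of 12 and 9 of 17, against 13.6% of all. CCAAT was present in 3 of 10, 8 of 12 and 13 of 17, against 33.0% of all. E2F sequences on opposite strands can overlap each other and were then each counted, as in MCM6. A match is a description of these letters and not evidence of binding.

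E2F1 (chr20:33686386-33686635, minus strand) carried E2F sequences at 33 to 26 and 20 to 13 bases before the start, in capitals below, and 3 CCAAT sequences that are not marked. RRM2 (chr2:10122489-10122738, plus strand) and CDC6 (chr17:40287629-40287878, plus strand) carried 3 CCAAT sequences each, in capitals, some of them read as ATTGG on the printed strand, and no E2F sequence of the letters searched.
E2F1: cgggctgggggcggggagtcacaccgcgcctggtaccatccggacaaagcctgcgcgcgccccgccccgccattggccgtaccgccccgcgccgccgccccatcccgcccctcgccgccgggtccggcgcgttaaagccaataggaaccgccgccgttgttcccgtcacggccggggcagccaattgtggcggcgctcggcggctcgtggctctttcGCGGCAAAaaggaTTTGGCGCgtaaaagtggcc
RRM2: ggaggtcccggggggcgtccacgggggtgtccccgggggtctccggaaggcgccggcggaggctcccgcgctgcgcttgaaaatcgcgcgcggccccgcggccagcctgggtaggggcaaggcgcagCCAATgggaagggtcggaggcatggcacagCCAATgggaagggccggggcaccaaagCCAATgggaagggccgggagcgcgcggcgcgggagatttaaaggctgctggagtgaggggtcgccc
CDC6: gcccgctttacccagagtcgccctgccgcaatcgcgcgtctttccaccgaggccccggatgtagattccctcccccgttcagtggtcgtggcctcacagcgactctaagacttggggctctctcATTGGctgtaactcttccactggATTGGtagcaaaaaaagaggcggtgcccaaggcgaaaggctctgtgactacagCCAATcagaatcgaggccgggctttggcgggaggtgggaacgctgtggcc

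CCNB2 (chr15:59104896-59105145, plus strand), PLK1 (chr16:23678639-23678888, plus strand) and MKI67 (chr10:128126424-128126673, minus strand) each held TTTGAA at 29 to 24 bases before the start, in capitals below, and MKI67 held another at 47 to 42 bases. The shared place of the sequence in these mitotic genes is the reason they are shown together.
CCNB2: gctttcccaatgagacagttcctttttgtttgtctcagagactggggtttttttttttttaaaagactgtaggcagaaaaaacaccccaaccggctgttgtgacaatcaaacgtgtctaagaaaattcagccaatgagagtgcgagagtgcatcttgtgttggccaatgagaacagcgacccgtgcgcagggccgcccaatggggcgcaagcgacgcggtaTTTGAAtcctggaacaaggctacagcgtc
PLK1: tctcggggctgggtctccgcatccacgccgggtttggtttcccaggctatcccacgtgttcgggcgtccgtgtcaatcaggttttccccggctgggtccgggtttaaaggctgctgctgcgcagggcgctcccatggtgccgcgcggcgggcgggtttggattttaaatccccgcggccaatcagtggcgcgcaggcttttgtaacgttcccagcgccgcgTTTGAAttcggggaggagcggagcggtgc
MKI67: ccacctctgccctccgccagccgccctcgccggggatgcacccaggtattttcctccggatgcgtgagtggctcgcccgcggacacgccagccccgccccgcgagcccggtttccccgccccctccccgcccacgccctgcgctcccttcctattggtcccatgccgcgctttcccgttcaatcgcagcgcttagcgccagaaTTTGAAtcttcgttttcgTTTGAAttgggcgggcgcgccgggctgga
None of these 3 genes passed the test, with log2 fold changes of -0.013, 0.075 and 0.34, while E2F1 and RRM2 rose and CDC6 fell. CDKN2C and CCND3 also passed, and their promoters carried no E2F, CHR or CCAAT sequence of the letters searched. A link between these sequences and the changes was not tested.

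In G1, 3 of 14 genes rose (21.4%) and 0 fell (limma, Benjamini-Hochberg), with a median log2 fold change of 0.076. At an unadjusted p of 0.05 there were 5 higher and 0 lower. Of all tested genes 22.9% passed the adjusted threshold, 9.58% higher and 13.3% lower, and 38.1% passed the unadjusted one. The rising genes were CDKN2C, E2F1 and CCND3.

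CDKN2C encodes p18-INK4c, which binds CDK4 and CDK6 and blocks their activation by D cyclins. It measured 1.502, 1.76 and 1.59 FPKM in the knockout libraries and 0.906, 0.858 and 1.16 FPKM in the control libraries. Every knockout library was above every control library, at a low level near 1 FPKM. The mean went from 0.974 ± 0.162 to 1.62 ± 0.132 FPKM (SD, n = 3), 1.66-fold, with a log2 fold change of 0.41 (SE 0.0783, limma adjusted p = 0.00706). With a pseudocount of 0.1 in place of 1 the log2 fold change was 0.68, more than 1.5 times larger, and with TPM of nuclear genes it was 0.63.

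E2F1, an activator of replication genes, measured 14.7, 16.2 and 15.6 FPKM in the knockout and 11.4, 11.9 and 14.0 FPKM in the control. The groups did not overlap, and control 3 came closest to the knockout libraries. The rise was 1.25-fold, with a log2 fold change of 0.30 (SE 0.0886, limma adjusted p = 0.0386). Its call was lost without a filter (0.0626), with TPM (0.0618), and without knockout 1, 2 or 3 or control 1 or 2, for which the adjusted p ran from 0.0748 to 0.143. E2F2, a related activator, went from 3.15 ± 0.509 to 4.04 ± 0.184 FPKM without overlap (SD, n = 3) and did not pass (log2 fold change 0.29, limma adjusted p = 0.0616), but it did with replicate number as a block (adjusted p = 0.0306) and without control 2 (adjusted p = 0.04).

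CCND3, a D-type cyclin gene, measured 12.9, 14.3 and 13.3 FPKM in the knockout and 10.7, 10.7 and 12.0 FPKM in the control. Knockout libraries were all higher, and control 3 was again the closest of the controls. The log2 fold change was 0.25 (SE 0.0776, limma adjusted p = 0.0435), the weakest of the 9 calls. Correction for GC content and transcript length took it to 0.097 (adjusted p = 0.362), and the call was lost without a filter (0.0559), with TPM (0.0961) and without knockout 1, 2 or 3 or control 1 or 2 (0.084 to 0.141).

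The D-type cyclin and kinase genes with the highest levels in G1 were CCND1, CDK4 and CCND2. CCND1 measured 104.0, 107.2 and 106.2 FPKM in the knockout and 109.4, 110.1 and 86.1 FPKM in the control, with a log2 fold change of 0.064 (SE 0.1, limma adjusted p = 0.675). Control 3 was the lowest of all libraries and controls 1 and 2 were the highest, so the groups overlapped. CDK4, the kinase that these cyclins activate, measured 105.8, 110.4 and 101.8 FPKM in the knockout and 90.7, 89.5 and 111.0 FPKM in the control, with a log2 fold change of 0.13 (SE 0.0948, limma adjusted p = 0.334). Here control 3 was the highest library and the other controls the lowest, and without it CDK4 passed at 0.23 (adjusted p = 0.00371). CCND2 measured 42.2, 41.8 and 43.5 FPKM against 38.8, 38.1 and 36.2 FPKM, without overlap, and did not pass (log2 fold change 0.17, SE 0.067, limma adjusted p = 0.0974).

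The other G1 genes did not pass either, with log2 fold changes from -0.13 to 0.088. CDK6 averaged 38.7 FPKM in the knockout and 36.5 FPKM in the control (0.088), and CDK2, the partner of cyclin E, averaged 27.8 and 28.97 FPKM (-0.060). The CDK inhibitor CDKN1B, p27, averaged 7.997 and 7.74 FPKM (0.044). Cyclin E1 (CCNE1) averaged 1.07 and 1.27 FPKM (-0.13), and cyclin E2 (CCNE2) averaged 8.57 and 8.59 FPKM (-0.0070). With the correction for GC content and length CCNE2 went to 0.19 (limma adjusted p = 0.0365). The phosphatase gene CDC25A averaged 10.9 and 10.6 FPKM (0.053), and RB1 averaged 20.6 and 21.8 FPKM (-0.075).

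In S phase, 2 of 14 genes rose and 1 fell (21.4%, against 22.9% of all tested genes), with a median log2 fold change of 0.056. MCM5 and RRM2 rose and CDC6 fell.

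CDC6, which loads the MCM helicase onto origins, measured 30.4, 28.7 and 29.5 FPKM in the knockout and 37.1, 36.5 and 35.1 FPKM in the control. All knockout libraries were lower, at 81.4% of the control mean, and the spread within each group was small. The log2 fold change was -0.29 (SE 0.0668, limma adjusted p = 0.016). The call was lost with TPM of nuclear genes (0.0668), without knockout 2 (0.0608), without knockout 3 (0.0854) and without control 1 (0.0698). CDT1, its partner in loading, averaged 15.1 FPKM in the knockout and 13.3 FPKM in the control and did not pass (log2 fold change 0.18, limma adjusted p = 0.179), but did so without control 3 (0.26, adjusted p = 0.00599).

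RRM2, the regulated small subunit of ribonucleotide reductase, measured 64.7, 61.2 and 62.7 FPKM in the knockout and 51.4, 52.2 and 51.2 FPKM in the control. The controls lay within about 1 FPKM of each other and well below the knockout libraries. The rise was 1.22-fold, with a log2 fold change of 0.28 (SE 0.0656, limma adjusted p = 0.0168), and the call was lost with TPM (0.0652), without knockout 1 (0.0757), without knockout 3 (0.0887) and without control 1 (0.0657). The large subunit RRM1 averaged 81.8 and 80.3 FPKM and did not pass (log2 fold change 0.026, limma adjusted p = 0.819), but did with the GC and length correction (0.14, adjusted p = 0.0404).

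Of the 6 subunits of the MCM2-7 helicase, 1 rose and the other 5 did not pass, with a median log2 fold change of 0.11. MCM5 measured 35.0, 38.6 and 35.8 FPKM in the knockout and 30.2, 32.4 and 28.1 FPKM in the control. The groups did not overlap, and the log2 fold change was 0.26 (SE 0.0785, limma adjusted p = 0.0394). Correction for GC content and length took it to 0.099 (adjusted p = 0.111), and its call was lost with TPM (0.103), with TPM of nuclear genes (0.0534) and without knockout 1, 2 or 3 or control 1 (0.0828 to 0.138).

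MCM7 was the most abundant of the 51 genes. It measured 368.1, 382.5 and 363.8 FPKM in the knockout and 359.5, 372.5 and 338.0 FPKM in the control, with overlap (log2 fold change 0.059, SE 0.0777, limma adjusted p = 0.607). MCM4 measured 137.9, 136.5 and 136.7 FPKM against 126.2, 134.1 and 112.8 FPKM, without overlap, and did not pass (0.14, SE 0.0814, limma adjusted p = 0.227). MCM2 averaged 66.1 FPKM in the knockout and 61.0 FPKM in the control (log2 fold change 0.12), MCM3 68.2 and 66.2 FPKM (0.044), and MCM6 58.9 and 54.8 FPKM (0.10). With the GC and length correction MCM6 passed (0.23, limma adjusted p = 0.0259) while MCM5 did not, so which subunit rose depended on it.

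PCNA, the sliding clamp, measured 259.9, 233.2 and 246.6 FPKM in the knockout and 285.7, 261.5 and 353.7 FPKM in the control. All knockout libraries were lower, but control 3 stood far above the other controls, and the gene did not pass (log2 fold change -0.27, SE 0.114, limma adjusted p = 0.112). Without control 2 it passed at -0.37 (adjusted p = 0.0449). RFC4, a subunit of the clamp loader, averaged 42.6 FPKM in the knockout and 47.3 FPKM in the control (-0.14), and GINS2, part of the active helicase, averaged 16.1 and 18.2 FPKM (-0.17). TYMS, which makes thymidylate, averaged 89.1 and 86.3 FPKM (0.052), and none of these 3 passed.

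**Figure D2:**
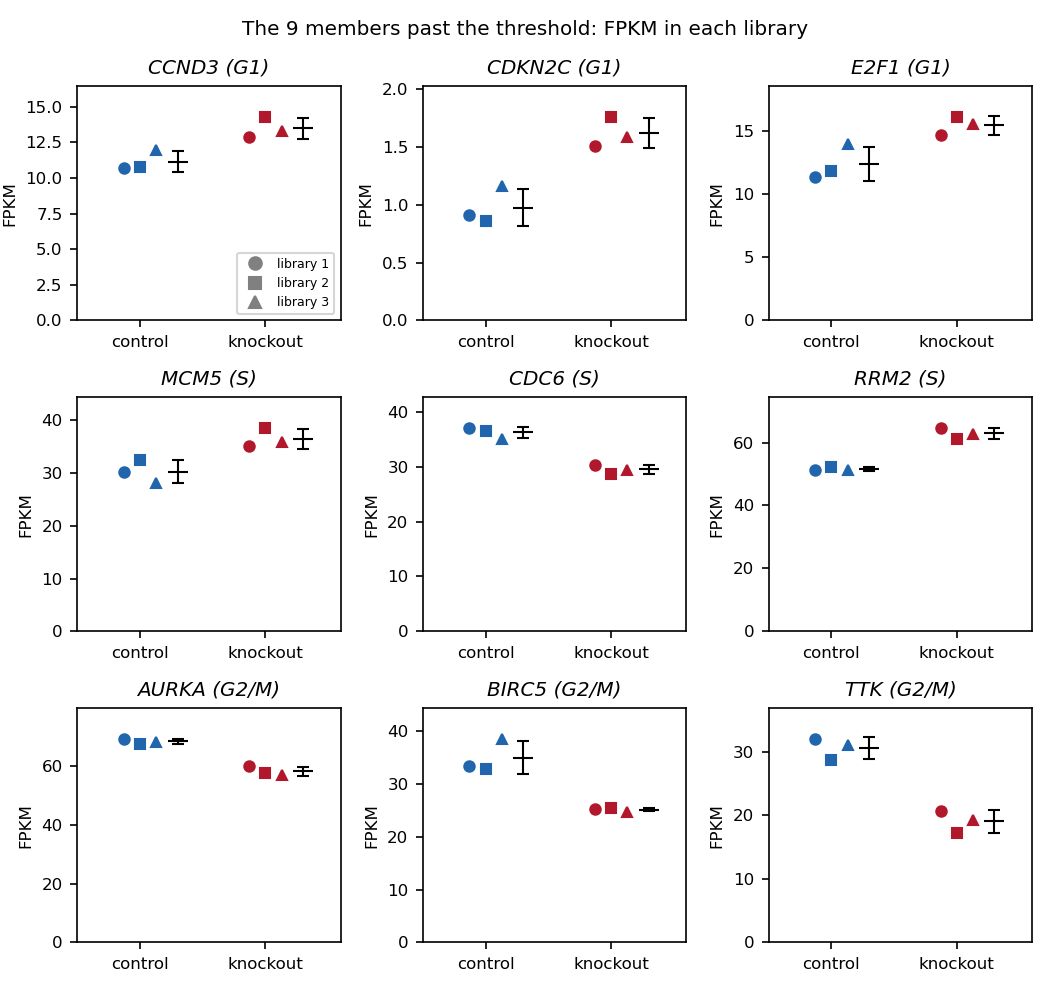
FPKM of the 9 genes that passed the test in each of the 3 control libraries (blue) and 3 knockout libraries (red), with the marker shape for the library number and black bars for the mean and SD; each axis starts at 0. The groups do not overlap in any panel, and relative to the level it is widest for TTK, BIRC5 and CDKN2C.

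In G2 and mitosis, 0 of 23 genes rose and 3 fell (limma, Benjamini-Hochberg), with a median log2 fold change of -0.013. At an unadjusted p of 0.05 there were 3 higher and 3 lower, while 38.1% of all tested genes passed at that threshold. TTK, BIRC5 and AURKA fell. The absence of rises depended on the setting: 3 genes rose and 3 fell with the GC and length correction (median 0.076; 27.1% of all genes passed), and 3 rose and 2 fell with the replicate block added to it (24.6%). There were 3 rises and 7 falls with array weights (57.2% of all genes passed), 3 and 4 without control 3 (40.1%), 1 and 3 with the replicate block alone (27.1%), and 1 and 2 without control 2 (24.6%).

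TTK encodes MPS1, the kinase that starts spindle checkpoint signalling at unattached kinetochores. It measured 20.7, 17.2 and 19.2 FPKM in the knockout and 32.1, 28.7 and 31.1 FPKM in the control. Every knockout library was far below every control library, at 62.2% of the control mean. This was the largest change among the 51 genes, with a log2 fold change of -0.66 (SE 0.0858, limma adjusted p = 0.00124), and it ranged from -0.72 to -0.47 over the 14 alternatives.

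BIRC5 encodes survivin, a subunit of the chromosomal passenger complex with Aurora B. It measured 25.2, 25.4 and 24.8 FPKM in the knockout and 33.4, 32.8 and 38.6 FPKM in the control. The knockout libraries were nearly equal to each other and all lower, at 71.9% of the control mean (log2 fold change -0.46, SE 0.0792, limma adjusted p = 0.00431). AURKB, the kinase of the same complex, measured 69.2, 70.4 and 67.2 FPKM against 72.7, 74.6 and 90.3 FPKM, also without overlap. It did not pass (log2 fold change -0.19, limma adjusted p = 0.158), and control 3 was far above the other controls.

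AURKA, the kinase of centrosomes and spindle poles, measured 60.0, 57.6 and 56.9 FPKM in the knockout and 69.3, 67.4 and 68.3 FPKM in the control. Both groups were tight and did not overlap, and the log2 fold change was -0.23 (SE 0.0658, limma adjusted p = 0.0359). Correction for GC content and length took it to -0.11 (adjusted p = 0.15), and the call was lost with TPM of nuclear genes (0.103) and without knockout 1, 2 or 3 or control 1 or 2 (0.0677 to 0.172). Its activator TPX2 measured 119.9, 111.0 and 114.2 FPKM against 112.5, 120.1 and 105.5 FPKM, with overlap, and did not pass (0.031, SE 0.0772, limma adjusted p = 0.801).

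None of the mitotic cyclin genes passed. CCNB1 measured 139.2, 134.8 and 138.7 FPKM in the knockout and 145.7, 144.3 and 167.1 FPKM in the control, without overlap, and did not pass (log2 fold change -0.14, SE 0.0805, limma adjusted p = 0.221). CCNB2 averaged 53.4 and 53.9 FPKM (-0.013), CCNA2 51.7 and 57.1 FPKM (-0.14), and their kinase CDK1 87.8 and 88.8 FPKM (-0.015). Correction for GC content and length turned the sign of CDK1, to 0.24 (limma adjusted p = 0.01). The phosphatases that activate CDK1 averaged 65.2 and 56.4 FPKM for CDC25B (0.20, limma adjusted p = 0.0625) and 8.09 and 7.56 FPKM for CDC25C (0.088).

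CDC20, the activator of the anaphase-promoting complex, measured 131.3, 133.9 and 132.1 FPKM in the knockout and 124.9, 125.4 and 129.2 FPKM in the control. The groups did not overlap, but the difference was small (log2 fold change 0.066, SE 0.0667, limma adjusted p = 0.497). UBE2C, the ubiquitin-conjugating enzyme of that complex, averaged 103.5 and 100.4 FPKM (0.053). The checkpoint genes BUB1 and BUB1B averaged 40.4 and 43.8 FPKM (-0.12) and 37.6 and 38.2 FPKM (-0.018), and neither passed.

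MKI67, whose protein Ki-67 is the standard marker of cycling cells, measured 35.5, 33.5 and 31.5 FPKM in the knockout and 28.3, 30.5 and 20.8 FPKM in the control. All knockout libraries were higher, but control 3 lay far below the other controls and the gene did not pass (log2 fold change 0.34, SE 0.128, limma adjusted p = 0.0844). With replicate number as a block it did pass (0.34, adjusted p = 0.0266), as it did without control 2 (0.44, adjusted p = 0.0287) and without control 3 (0.18, adjusted p = 0.036). TOP2A, topoisomerase II alpha, averaged 85.5 FPKM in the knockout and 96.4 FPKM in the control (-0.17, limma adjusted p = 0.265) and passed without control 3 (-0.27, adjusted p = 0.00475). FOXM1, a transcription factor of mitotic genes, averaged 44.4 and 39.1 FPKM (0.18), and the Polo kinase PLK1 averaged 53.4 and 50.6 FPKM (0.075).

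Motor and kinetochore genes did not pass on FPKM as deposited. KIF11, the motor that separates spindle poles, averaged 30.0 and 29.4 FPKM (0.025), and passed with the GC and length correction (0.22, limma adjusted p = 0.0427). KIF23, a motor of the central spindle, averaged 48.3 and 48.7 FPKM (-0.011). CENPE, a kinetochore motor, averaged 7.04 and 7.79 FPKM (-0.14), and CENPF, a large kinetochore protein, averaged 24.7 and 24.1 FPKM (0.031).

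Differences between libraries of the same group went along with transcript length and GC content. The difference of control 3 from controls 1 and 2 was lower for genes with longer exonic sequence (Spearman's rho of -0.75 over the 51 genes and -0.55 over 11177 genes), and MKI67, the longest of the 51 at 12807 exonic bases, had the largest deficit there (-0.48). The difference of knockout 2 from knockouts 1 and 3 was higher for genes with a higher GC content (rho of 0.93 over the 51 genes and 0.79 over all), and CENPE, with the lowest GC content of 35.5%, was the lowest. Genes share the libraries and these properties, so the correlations are descriptions. Control 3 was the lowest library for 20 genes and the highest for 14. Without it, 16 of the 51 genes passed (31.4%), 11 higher and 5 lower, against 40.1% of all tested genes; the 9 calls were kept, and CDK4, CDT1, TYMS, CDC25B, UBE2C, MKI67 and TOP2A were added.

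When each library was corrected for GC content and transcript length, 15 of the 51 genes passed, 11 higher and 4 lower (29.4%), against 27.1% of all genes so tested. TTK (-0.47), BIRC5 (-0.48), CDC6 (-0.23), CDKN2C (0.36), E2F1 (0.22) and RRM2 (0.33) kept their calls, while CCND3, MCM5 and AURKA lost theirs. Added were MCM6 (0.23), RRM1 (0.14), CCND2 (0.16), CDKN1B (0.14), MKI67 (0.25), KIF11 (0.22), CDK1 (0.24) and CCNE2 (0.19) among the rises and AURKB (-0.20) among the falls. With the replicate block as well, 10 genes passed (19.6%, against 24.6% of all), and of the added genes MCM6, MKI67, KIF11 and CDK1 remained.

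**Figure D3:**
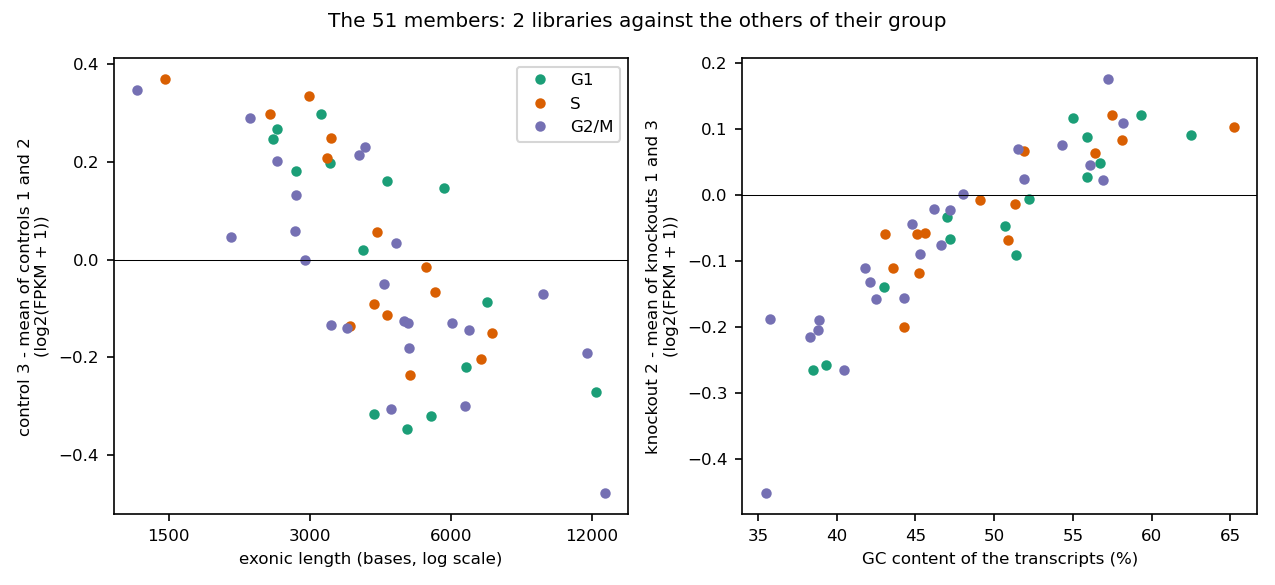
Left, control 3 minus the mean of controls 1 and 2 (log2(FPKM + 1)) against exonic length in bases on a log axis; right, knockout 2 minus the mean of knockouts 1 and 3 against the GC content of the transcripts in percent. Each point is 1 of the 51 genes, coloured by phase; the left panel slopes down and the right panel slopes up.

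The split between rises and falls also depended on the scale. Expressed as TPM, in which each library is rescaled to the same sum, 1 of the 51 genes was higher and 4 were lower (20.3% of all tested genes passed), and over all genes 29.1% of calls were rises against 41.8% with FPKM. With mitochondrially encoded genes left out of that sum, 4 were higher and 2 lower (17.4% of all tested genes passed). TTK, BIRC5 and CDKN2C kept their direction and their call on each of these scales.

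Of the 4 falls, 3 lay in stretches of chromosomes where the neighbouring genes were lower as well. Within 5 Mb of TTK (chromosome 6, 80003887 to 80042527, GRCh38) the other 22 tested genes had a median log2 fold change of -0.40, and 18 of them fell. Around BIRC5 (chromosome 17, 78214186 to 78225636) the median of 137 genes was -0.38, with 94 lower and 0 higher. Around CDC6 (chromosome 17, 40287633 to 40304657) the median of 135 genes was -0.26, with 65 lower, and TOP2A, its near neighbour, sat among 135 genes at -0.26. The windows of CDC6 and TOP2A overlap almost wholly, so their neighbours are not separate observations. Within its own neighbourhood TTK ranked at the 22.7th percentile, BIRC5 at the 36.5th, CDC6 at the 43.7th and TOP2A at the 67.4th.

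The fourth fall, AURKA, had no such surroundings (23 genes, median 0.0052, 2 lower). Among the rises, RRM2 lay in a neighbourhood with a median of -0.15 over 21 genes, and ranked at the 95.2nd percentile of it. CDKN2C had neighbours at 0.034, CCND3 at 0.069, E2F1 at 0.088 and MCM5 at 0.12. The rises were picked because they passed the test, so a value above the median of their neighbours follows largely from that choice. The 47 genes outside those stretches had neighbour medians from -0.18 to 0.15, and of these 5 rose and 1 fell. The group was set at a neighbour median of -0.25 after the values were seen. It leaves out 3 of the falls, so its count leans towards rises by construction. Among all tested genes, inside and outside such stretches, 9.58% were higher and 13.3% lower. The part of the chromosome stretches in the falls of TTK, BIRC5 and CDC6 was not tested.

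**Figure D4:**
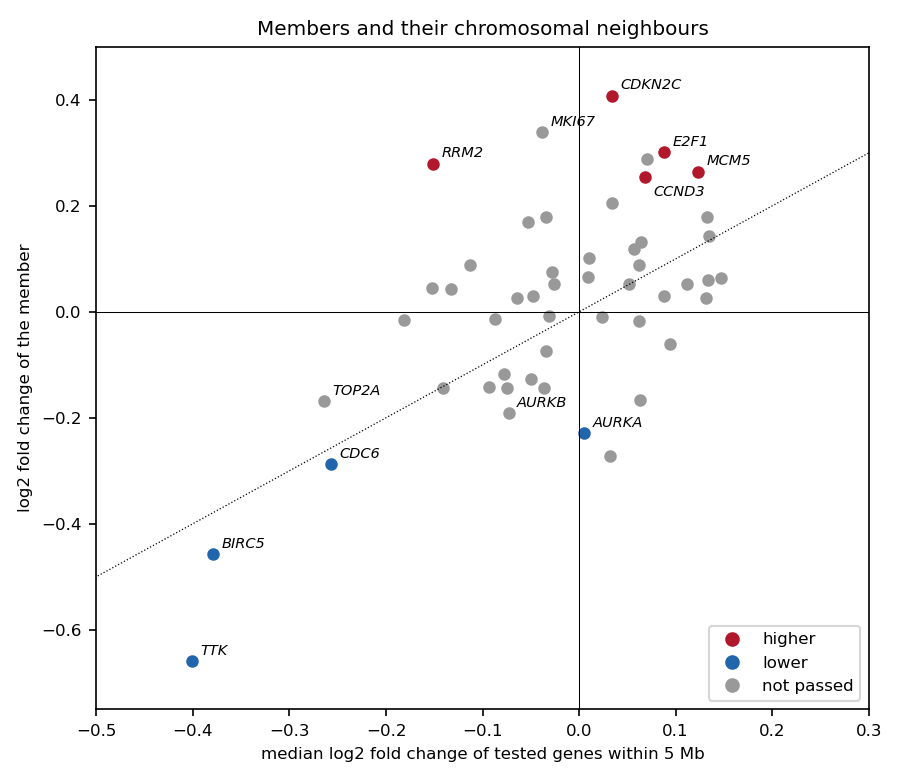
Log2 fold change of each of the 51 genes (vertical axis) against the median log2 fold change of the other tested genes within 5 Mb on the same chromosome (horizontal axis); the dotted line marks equality, red points rose, blue points fell and grey points did not pass. TTK, BIRC5, CDC6 and TOP2A lie at neighbour medians of -0.26 or lower, and the remaining genes lie between -0.18 and 0.15.

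Beyond the 51 genes, 152 further genes of the cycle in 9 lists gave the surroundings of each role. Of these 151 were tested, 7 rose and 16 fell (15.2% called, against 22.9% of all tested genes), with a median log2 fold change of -0.047. The unadjusted counts given for single lists stand against 38.1% of all tested genes at an unadjusted p of 0.05. Among CDK inhibitors and pocket proteins, 0 of 7 rose and 2 fell (limma, Benjamini-Hochberg; at an unadjusted p of 0.05, 1 higher and 2 lower), with a median of -0.22. RBL2, the pocket protein p130, went from 8.13 ± 0.593 to 5.26 ± 0.406 FPKM (SD, n = 3; log2 fold change -0.55, limma adjusted p = 0.0024), and CDKN2B, the INK4 inhibitor p15, from 3.28 ± 0.181 to 2.29 ± 0.255 FPKM (-0.38, adjusted p = 0.0102). CDKN2C and CDKN2B, both INK4 inhibitors, changed in opposite directions. CDKN1A, p21, averaged 9.31 FPKM in the knockout and 10.4 FPKM in the control and did not pass (-0.14, limma adjusted p = 0.18).

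Among E2F, DP and MuvB factors, 2 of 14 rose and 0 fell (limma; at an unadjusted p of 0.05, 3 higher and 2 lower), with a median of -0.022. E2F8, a repressor, had a log2 fold change of 0.40 (limma adjusted p = 0.019) and MYBL2, B-Myb, of 0.26 (adjusted p = 0.0195). Among nucleotide supply genes 1 of 8 rose and 1 fell, with a median of -0.19: UNG, the uracil glycosylase, at 0.28 (limma adjusted p = 0.021), and DCK, deoxycytidine kinase, at -0.29 (adjusted p = 0.0495).

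Among origin and helicase factors, 5 of 20 fell and 0 rose (limma; at an unadjusted p of 0.05, 7 lower and 1 higher), with a median of -0.065. ORC3, a subunit of the origin recognition complex, had the largest change at -0.83 (limma adjusted p = 0.000206), and its neighbours within 5 Mb on chromosome 6 had a median of -0.57. TIPIN, a fork protection factor, was at -0.35 (limma adjusted p = 0.0137) and ORC4 at -0.31 (adjusted p = 0.0208). Among polymerase, clamp and maturation factors, 4 of 25 fell and 1 rose, with a median of -0.063. The falls with the smallest p were DNA2, a nuclease and helicase (-0.43, limma adjusted p = 0.00415), RFC3, a clamp loader subunit (-0.30, adjusted p = 0.0181), and POLE2, a subunit of polymerase epsilon (-0.32, adjusted p = 0.0293).

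Among kinetochore and checkpoint genes, 2 of 20 fell and 1 rose, with a median of -0.060. The NDC80 complex members SPC24 and NUF2 changed in opposite directions, at 0.29 (limma adjusted p = 0.0133) and -0.41 (adjusted p = 0.0196), and CENPW fell by 0.46 (adjusted p = 0.0254). Among mitotic entry and exit genes, 2 of 20 rose and 2 fell, with a median of 0.021. FBXO5, the inhibitor EMI1 of the anaphase-promoting complex, was at -0.54 (limma adjusted p = 0.00311), CDC27, a subunit of that complex, at -0.53 (adjusted p = 0.00324), and FZR1, its activator CDH1, at 0.40 (adjusted p = 0.0153). Of the 16 falls in the 9 lists, ORC3, CENPW, FBXO5 and CDC27 lay in stretches where the neighbour median was below -0.25. The first 3 are on chromosome 6, as TTK is, and CDC27 is on chromosome 17, as BIRC5 and CDC6 are. The other falls lay outside such stretches. In all, 9 genes of the lists lay in such stretches, and TK1, KIF18B, POLA1, CENPI and ZWINT among them did not pass.

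None of the 25 spindle, cytokinesis and mitotic kinesin genes and none of the 12 condensin and chromosome structure genes passed (limma). At an unadjusted p of 0.05 the first list had 4 higher and 1 lower, and the second had 1 higher and 0 lower. Both had a median log2 fold change of 0.027.

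**Figure D5:**
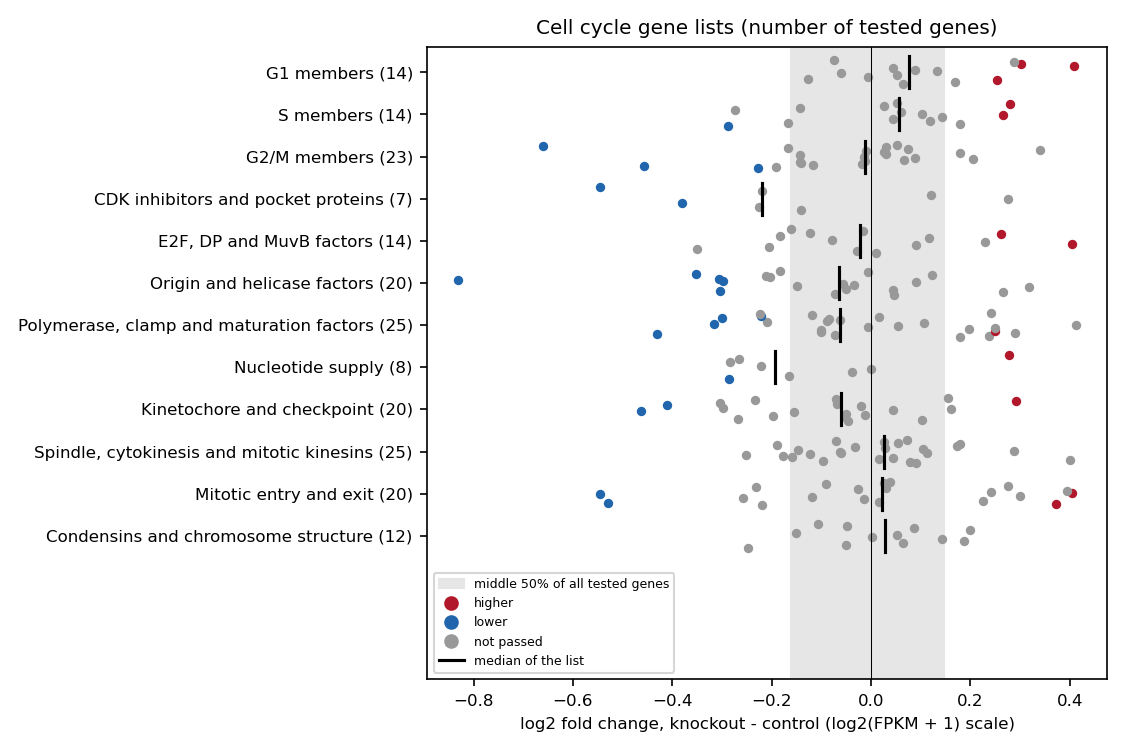
Log2 fold change (knockout minus control, log2(FPKM + 1) scale) of the 51 genes by phase and of the 9 further cell cycle lists, with the number tested in brackets; each point is a gene, red rose, blue fell, grey did not pass, black ticks are list medians and the grey band holds the middle 50% of all tested genes (-0.16 to 0.15). All medians except those of the CDK inhibitor list (-0.22) and the nucleotide supply list (-0.19) lie within the band.

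Some levels depend on how reads of overlapping genes were assigned, and the strand setting of the counting is not given in the sources used here. Overlaps were searched only between genes with deposited values. Of the 51 genes, 13 share exonic bases with such a gene on the opposite strand. The largest shares were those of CDK4 with TSPAN31 (43.2% of its exonic bases), TYMS with ENOSF1 (39.1%) and CCNE2 with INTS8 (37.0%). None of the 9 genes that passed shares exonic bases with another gene that has deposited values. Further genes of the annotation were not compared.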

How the data were processed

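Poly(A)-selected RNA of 6 libraries was measured, 3 knockout and 3 control. The authors deposited FPKM values for 20014 genes, rounded to 3 decimals in the file. Per the submitters' processing notes, the tools were HISAT2 2.0.5, Trimmomatic 0.36, Cufflinks, featureCounts 1.6.3 and edgeR 3.6.3 on the build GRCh38.p13. Their roles, the annotation, the strand setting and the read depth were not given in the sources used here. FPKM steps of low genes imply 45100000 to 52200000 reads per library. Whole reads (tolerance 0.15) were obtained for 59.9% to 66.1% of the 319 to 354 low values examined in a library, so reads were not recovered, no count test was run, and counting intervals were not computed.

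Groups and replicate numbers came from the sample titles. Genes with a mean of at least 1 FPKM were tested with limma 3.58.1 in R 4.3.3 on log2(FPKM + 1), genotype being the sole term, with a variance trend, and Benjamini-Hochberg adjustment was over 11262 genes at 0.05. The fit was tested on simulated data. Exact permutation tests were two-sided. Lists are described by counts and medians, without a test. Alternatives were a pseudocount of 0.1, no filter, TPM, TPM of nuclear genes, a replicate block, array weights, spline correction for GC content and length (5 degrees of freedom, 11177 genes), that correction with the block, and each library left out in turn.

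Deviations of same-numbered libraries from their group means correlated across genes at 0.375, 0.150 and 0.188, all above 0.1. For libraries of different numbers the correlations ran from -0.31 to 0.067. Deviations from a shared mean constrain each other, so these values do not establish a pairing. The block pairs libraries by number on this basis alone, as the labels name no shared day or batch. Coordinates, length and GC content were those of GENCODE 29 (GRCh38), promoters those of RefSeq (GRCh38.p14), and identifiers were matched to symbols by table.

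The 51 genes, the lists and the tests were chosen with earlier results of these data known. All 51 are named; values in every library are given for genes that passed and for the 3 per phase with the highest mean FPKM, and of further lists the 3 genes with the smallest p among those that passed are named. Other genes with values in every library, and CDKN1A, were chosen after their values were seen. Tables and plots were made in Python 3.11.15 (scipy 1.17.1, pandas 2.3.3, matplotlib 3.10.9, numpy 2.4.6).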

Additional observations from a re-analysis of the deposited data

How the results depend on the processing

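TTK, BIRC5 and CDKN2C kept direction and call under all 14 alternatives. The other 6 called genes kept their direction in all of them. All 40 calls lost, among 126 combinations of the 9 called genes with the 14 alternatives, were of these 6 genes, as given beside each gene. The cause was not tested. All tested genes that passed numbered 2579, 6437 (57.2%) with array weights, and 1030 to 4521 with a library left out. Of the 51 genes 5 rose, but 3 without a filter, 1 with TPM, 14 with array weights, 11 with the GC and length correction, and 1 to 11 with a library left out. The 4 falls became 2 with TPM of nuclear genes, 9 with array weights and 2 to 5 with a library left out. The 3 calls in G1 became 1 without a filter, 1 with TPM, 6 with array weights, 5 with the GC and length correction and 1 to 4 with a library left out. The 3 in S became 1 with TPM, 1 with TPM of nuclear genes, 7 with array weights and 0 to 5 with a library left out. The 3 in G2/M became 10 with array weights, 6 with the GC and length correction, 5 with that correction and the replicate block, and 2 to 7 with a library left out. With the replicate block alone, 3051 of all tested genes passed, 7 of the 51 rose and 4 fell: E2F2 and MKI67 were added and no other call among the 51 changed. Of the 51 genes, 4 passed without knockout 1 (7.84%, against 12.6% of all tested genes) and without knockout 2 (7.84% against 9.15%), 3 without knockout 3 (5.88% against 10.6%) and without control 1 (5.88% against 13.3%), 9 without control 2 (17.6% against 24.6%) and 16 without control 3 (31.4% against 40.1%). All tested genes passed at 15.3% without a filter, 20.3% with TPM, 17.4% with TPM of nuclear genes, 27.1% with the block or the GC and length correction, and 24.6% with both.

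Signs reversed in 24 genes, none of them among the 9 called. The log2 fold changes that reversed were, with array weights, CCND1 -0.038, CCNE1 0.013, CCNE2 0.070, CDC25A -0.068, MCM3 -0.010, CCNB2 0.052 and CDK1 0.060. With TPM they were RRM1 -0.018, CENPF -0.012, TPX2 -0.014 and KIF11 -0.018, and with TPM of nuclear genes CCNE2 0.038, CCNB2 0.035, CDK1 0.033, BUB1B 0.030 and KIF23 0.037. With the GC and length correction, alone or with the replicate block, they were CCND1 -0.041, CCNE2 0.19, RB1 0.074, MCM2 -0.0095, MCM7 -0.040, RFC4 0.0069, CCNA2 0.061, CCNB1 0.017, CCNB2 0.13, CDK1 0.24, BUB1B 0.076, PLK1 -0.041, CENPE 0.020 and KIF23 0.092, of which CDK1 passed in both (limma adjusted p = 0.01 and 0.0266) and CCNE2 without the block (adjusted p = 0.0365). With a library left out, the range crossed 0 for CCND1 -0.052 to 0.12, CDK6 -0.0017 to 0.14, CCNE2 -0.065 to 0.081, CDC25A -0.052 to 0.11, RB1 -0.15 to 0.011, MCM3 -0.00069 to 0.069, RRM1 -0.0061 to 0.063, TYMS -0.0065 to 0.15, CCNB2 -0.036 to 0.031, CDK1 -0.080 to 0.062, BUB1B -0.12 to 0.035, UBE2C -0.0075 to 0.17, CENPE -0.26 to 0.0076, CENPF -0.045 to 0.12, TPX2 -0.016 to 0.077, KIF11 -0.034 to 0.097 and KIF23 -0.058 to 0.027. Depth was estimated, not known, so the precision at low levels, such as that of CDKN2C and CCNE1, cannot be stated from counts.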

Other observations

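Ratios of partner genes within a library do not depend on the scaling of that library. They were computed for 8 pairs chosen after the values were seen and are given as a description. No pair passed an exact permutation test, whose smallest p was 0.1, or 0.267 after Benjamini-Hochberg adjustment over the 8 pairs. The ratio of RRM2 to RRM1, the subunits of ribonucleotide reductase, was 0.758, 0.789 and 0.762 in the knockout and 0.635, 0.674 and 0.622 in the control. The ratio of CDC6 to CDT1, the helicase loaders, was 2.15, 1.80 and 1.92 in the knockout and 3.02, 2.91 and 2.35 in the control. AURKA relative to its activator TPX2 was 0.5, 0.519 and 0.499 in the knockout and 0.615, 0.561 and 0.647 in the control. The groups did not overlap in these 3 pairs, each of which sets a gene that passed against a partner that did not, so the gap follows in part from the choice. The groups overlapped for CCND2 to CCND1, CDK4 to CDK6, CCNB1 to CDK1, CCNE1 to CCNE2 and AURKA to AURKB.

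Each library was also summarised by the median, within a phase, of each gene's log2 value minus its mean over the 6 libraries. For G1 genes the medians were 0.066, 0.036 and 0.041 in the knockout libraries and -0.044, -0.049 and -0.051 in the control libraries. For S genes they were 0.019, 0.039 and 0.018 in the knockout and -0.021, -0.014 and -0.041 in the control. For G2/M genes they were 0.041, -0.10 and -0.00021 in the knockout and 0.011, 0.031 and -0.027 in the control, with knockout 2 the lowest of all. Over all tested genes they ran from -0.019 to 0.011 in the knockout and from 0.0020 to 0.022 in the control. The groups did not overlap for G1 and S genes on FPKM, but with TPM they did: the G1 medians ran from -0.028 to 0.098 in the knockout and from -0.073 to 0.0024 in the control, and the S medians from -0.027 to 0.050 and from -0.057 to 0.042. Over all tested genes the TPM medians were 0.0415, -0.0819 and -0.0355 in knockout libraries 1 to 3. In control libraries 1 to 3 they were 0.0275, 0.0781 and -0.00594. These shifts of whole libraries were not taken out, so the overlap with TPM includes them. With TPM the G1 and S medians lay above that of all tested genes in each knockout library and below it in each control library. Knockout 2 was the lowest library for 10 of the 23 G2/M genes, and control 3 for 7 of the 14 S genes.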
